A study of Rattus norvegicus with 12 samples.

Results

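The transcripts of 4 genes of fatty acid uptake and oxidation (Slc27a6, Ppargc1a, Acadvl and Hadh) were followed in 12 RNA-seq libraries of Normal Rat Kidney (NRK) cells, a rat kidney line. They are 4 of the 20842 genes in the count table and 4 of the 13141 that passed a filter on low counts. They were chosen from the study's lists of genes that changed in the knockouts, so their differences between genotypes are given as a description, with errors and no p-value. The names and directions that chose them came from the same libraries: all 4 stood among the genes lowered in VAMP7KO, Slc27a6 and Ppargc1a among those lowered in ATG5KO, and Hadh among those raised in ATG5KO, while Acadvl was not in the portion of the ATG5KO list that could be read. The genes were taken from the table by Ensembl identifier (Slc27a6 ENSRNOG00000058193, Ppargc1a ENSRNOG00000004473, Acadvl ENSRNOG00000018114, Hadh ENSRNOG00000010697).

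Wild-type (WT) cells, cells without the SNARE protein VAMP7 (VAMP7KO) and cells without the autophagy protein ATG5 (ATG5KO) were grown with no treatment named, 4 replicates of each genotype, with 1 dish for each library. Each knockout line was grown from a single sorted cell after transfection with Cas9 and guide RNAs, so genotype and clone cannot be told apart, and p-values measure the spread between dishes of 1 line. The libraries held 21090858 to 31525111 counted reads. Levels are in CPM, counts scaled to a common library size after TMM scaling (edgeR), and a count of 3 or fewer, which stood for 0.0986 to 0.139 CPM, was taken as the floor. Limits set by this floor cover counting error only. Vamp7 itself was at 109 to 116 CPM in WT and at 41.6 to 51.9 CPM in VAMP7KO, with no overlap. Atg5 was not analysed here, since its identifier was not known. Replicates 1 and 2 separated from replicates 3 and 4 in every genotype. The labels give no reason for these 2 replicate sets, which were recognised from earlier results of these data, and the values of the 4 genes are therefore also given by set. The labels call the cells epithelial. Of the epithelial markers, Krt8 was at 452 to 875 CPM but only 2 of 20 could be identified. The 12 identified fibroblast and mesenchymal markers summed to 2775 to 4433 CPM in WT, 2590 to 4557 in VAMP7KO and 4594 to 6529 in ATG5KO. In WT the sum was mostly the collagens Col6a1 (mean 2509 CPM) and Col1a1 (859 CPM). Cdh2, Dcn, Thy1 and Fap had WT means of 0.0432, 0.0662, 0.334 and 0.434 CPM. The remaining markers had WT means from 1.71 CPM (Postn) to 116 CPM (Col3a1). What these levels mean for the type of the cells was not tested.

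Long-chain fatty acids enter cells with the help of transport proteins of the Slc27 family, which also couple them to coenzyme A. Carnitine carries the acyl groups into mitochondria, where acyl-CoA dehydrogenases such as Acadvl (very long chain) begin each turn of beta-oxidation and Hadh, a 3-hydroxyacyl-CoA dehydrogenase of shorter chains, catalyses a later step. Ppargc1a encodes PGC-1 alpha, a coactivator that raises the transcription of oxidation and mitochondrial genes together with PPAR and other nuclear receptors. Kidney tubule cells depend on fatty acid oxidation for much of their energy.

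Promoter windows of 300 bases, from 250 before to 50 after the start site, were read from RefSeq on the GRCr8 assembly, which is not the mRatBN7.2 build used for the counts. All 4 genes matched by symbol. The windows of Ppargc1a and Acadvl are shown because they are the ones that hold a searched motif. Searched were the cAMP response element TGACGTCA, the site of CREB, an activator of Ppargc1a in several tissues, and the nuclear receptor half-site AGGTCA, the half-site from which PPAR and related receptors build their elements. Both were searched on both strands, and no matches overlap in these windows. Capitals mark the matches.
Ppargc1a, chr14:63634058-63634357, plus strand: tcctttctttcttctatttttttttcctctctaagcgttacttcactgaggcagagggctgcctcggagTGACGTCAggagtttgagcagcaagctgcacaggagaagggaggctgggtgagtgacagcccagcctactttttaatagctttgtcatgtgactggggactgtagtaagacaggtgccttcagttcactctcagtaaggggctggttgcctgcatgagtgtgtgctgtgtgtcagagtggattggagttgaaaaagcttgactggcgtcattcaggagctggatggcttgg
Acadvl, chr10:55236656-55236955, minus strand: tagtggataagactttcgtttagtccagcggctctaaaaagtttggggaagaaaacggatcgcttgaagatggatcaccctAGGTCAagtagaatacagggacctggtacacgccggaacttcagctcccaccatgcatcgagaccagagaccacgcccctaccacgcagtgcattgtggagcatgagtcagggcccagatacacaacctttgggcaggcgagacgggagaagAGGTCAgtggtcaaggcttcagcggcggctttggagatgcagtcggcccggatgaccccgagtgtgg

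The Ppargc1a window held 1 cAMP response element, which began 181 bases before the start site, and no half-site. An element of this kind stood in 612 of 33469 promoter windows (1.83%). The Acadvl window held 2 half-sites, 169 and 17 bases before the start, and a half-site stood in 16.2% of all windows. The windows of Slc27a6 and Hadh held neither motif in these letters. A match is a description of the sequence, and binding was not measured.

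The uptake gene Slc27a6, a fatty acid transport protein, was detected in WT cells and in neither knockout. Its counts in WT were 659, 592, 61 and 71 in replicates 1 to 4, or 22.3, 20.5, 2.004 and 2.53 CPM. No read was counted in any of the 4 VAMP7KO or the 4 ATG5KO libraries. The WT mean of 11.8 CPM ± 11.1 (SD, n = 4) was at least 101-fold above the floor of the VAMP7KO libraries and at least 96.7-fold above that of the ATG5KO libraries. The 2 replicate sets gave very different limits. In replicates 1 and 2 the WT level was at least 181-fold above VAMP7KO and at least 176-fold above ATG5KO, and in replicates 3 and 4 the limits were 19.6-fold and 18.4-fold. The groups did not overlap in either set. A count of 0 allows an expected count of up to 3 in a library. The limits were set for single libraries, although all 4 of each knockout had no count. A transcript well under the floor could still have been missed.

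Ppargc1a, the coactivator, had the same pattern at a lower level. WT counts were 107, 106, 42 and 35, or 3.61, 3.67, 1.38 and 1.25 CPM, and all 8 knockout libraries had no count. The WT mean of 2.48 CPM ± 1.35 (SD, n = 4) was at least 21.2-fold above VAMP7KO and at least 20.3-fold above ATG5KO. In replicates 3 and 4, where WT was lower, these limits were 11.3-fold and 10.7-fold, against 30.9-fold and 29.9-fold in replicates 1 and 2. Every WT library stood above every knockout library for both genes, so the direction is the same in both sets.

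An absence of counts in all 8 knockout libraries was rare among the genes tested. It was found for 17 of 13141 genes (0.129%), of which 14 had a WT mean of at least 1 CPM. Slc27a6 had rank 3 among these 14 by WT level and Ppargc1a rank 10. Both had been chosen as genes lowered in both knockouts, so the share and the ranks only describe that choice. In bulk RNA, the loss of a subset of cells that expressed a gene and less of its RNA per cell cannot be told apart. Both genes passed the filter on low counts through WT alone, so they could pass only as genes higher there.

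**Figure D1:**
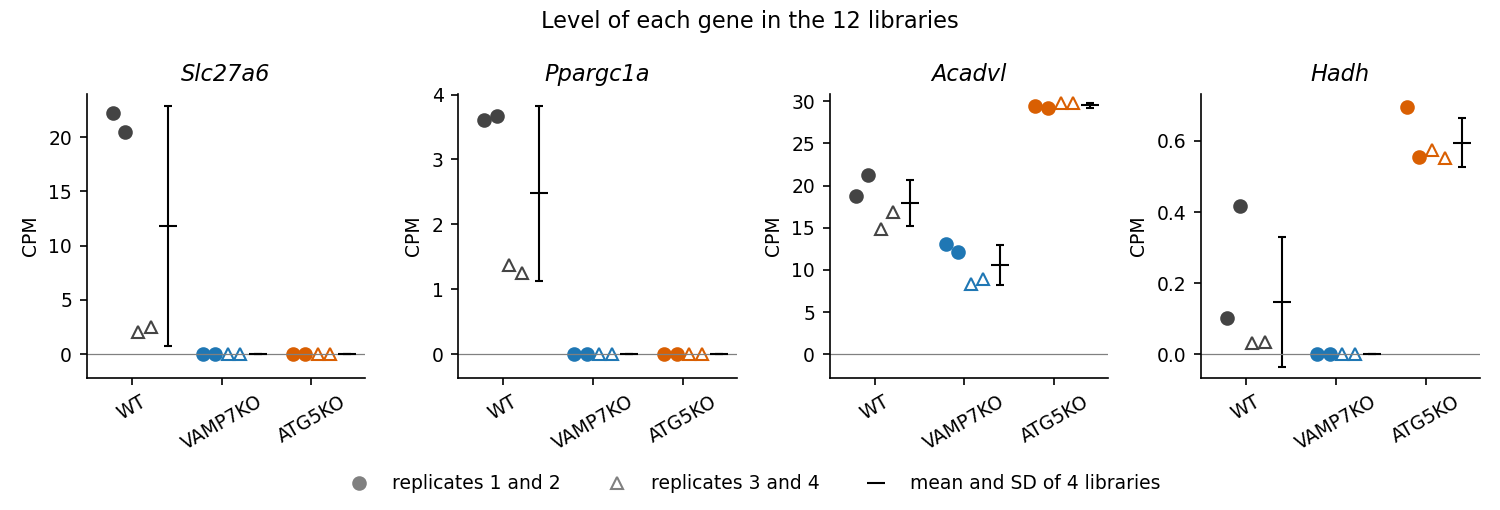
Level in CPM (vertical axis, linear) of Slc27a6, Ppargc1a, Acadvl and Hadh in the 12 libraries by genotype, with filled circles for replicates 1 and 2, open triangles for replicates 3 and 4, and a tick and bar for the mean and SD of 4 libraries. Slc27a6 and Ppargc1a lie at 0 in all 8 knockout libraries and split by replicate set in WT, Acadvl forms 3 separate levels, and Hadh stays below 1 CPM throughout.

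Acadvl, the first enzyme of very long chain oxidation, was detected in all 12 libraries and moved in opposite directions in the knockouts. WT counts were 557, 613, 453 and 472, or 18.8, 21.2, 14.9 and 16.8 CPM. VAMP7KO counts were 391, 267, 231 and 216, or 13.1, 12.1, 8.34 and 8.88 CPM. ATG5KO counts were 635, 841, 828 and 647, or 29.5, 29.2, 29.7 and 29.8 CPM. The lowest WT library was above the highest VAMP7KO library and below the lowest ATG5KO library, so the order ATG5KO, WT, VAMP7KO held without overlap.

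The mean Acadvl level was 17.9 CPM ± 2.72 in WT, 10.6 ± 2.33 in VAMP7KO and 29.6 ± 0.292 in ATG5KO (SD, n = 4 each). VAMP7KO thus had 59.0% of the WT level and ATG5KO 165%. The fitted log2 fold change was −0.77 (SE 0.12) for VAMP7KO against WT and 0.74 (SE 0.12) for ATG5KO against WT. The log2 fold change of VAMP7KO against ATG5KO was −1.50 (SE 0.12), with a VAMP7KO level of 35.8% of that in ATG5KO. Because no groups overlapped, all 4 same-numbered pairs necessarily had the same direction in each of these comparisons. The VAMP7KO level was 62.8% of WT in replicates 1 and 2 and 54.3% in replicates 3 and 4, and the ATG5KO level was 146% and 188%.

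Hadh, the 3-hydroxyacyl-CoA dehydrogenase, was near or under the floor outside ATG5KO. WT libraries had 3, 12, 1 and 1 counts, or 0.101, 0.416, 0.0329 and 0.0357 CPM, so 3 of 4 were at the floor and replicate 2 alone was clearly above it. VAMP7KO had no count in any library. ATG5KO had 15, 16, 16 and 12 counts, or 0.697, 0.555, 0.575 and 0.553 CPM. Every ATG5KO library was above every other library, though by as little as 0.553 against 0.416 CPM.

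For Hadh the fitted log2 fold change of ATG5KO against WT was 2.18 (SE 0.66), and WT replicate 2 decided its size. Without that library the value was 3.35 (SE 0.62), without ATG5KO replicate 2 it was 3.29 (SE 0.60), in replicates 1 and 2 alone it was 1.26 (SE 0.69), and in replicates 3 and 4 alone, where WT had 1 count a library, it was 3.87 (SE 1.003). The ATG5KO mean of 0.595 CPM ± 0.0687 (SD, n = 4) was at least 5.09-fold above the floor of VAMP7KO, with limits of 5.30-fold in replicates 1 and 2 and 4.87-fold in replicates 3 and 4. The WT mean of 0.146 CPM was at least 1.25-fold above the floor of VAMP7KO, a limit that rests on the 1 WT library above the floor. Hadh passed the filter through ATG5KO alone.

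In the genotype comparisons, 3 of the 4 genes were called lower in VAMP7KO at an adjusted p under 0.05 (edgeR quasi-likelihood test, Benjamini-Hochberg over all genes tested), where 12.3% of all genes were called lower and 10.5% higher. Hadh was the gene not called. In ATG5KO, Slc27a6 and Ppargc1a were called lower, where 22.7% of all genes were, and Acadvl and Hadh were called higher, where 23.6% were. Acadvl and Hadh were also called lower in VAMP7KO against ATG5KO, as were 23.6% of all genes. These counts restate how the genes were chosen. The Hadh call in ATG5KO was lost without the replicate block (log2 fold change 1.99) in replicates 1 and 2 alone, and when any of WT replicates 1, 3 and 4 or ATG5KO replicates 1, 3 and 4 was left out, which left 13 of 21 alternatives with the call. The Ppargc1a calls were lost with the DESeq2 Wald test. Hadh was called lower in VAMP7KO in 4 of 20 alternatives.

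The comparison of the replicate sets within WT was not one of those that chose the 4 genes. The sets were themselves recognised from earlier results of these data. The p-values between sets, here and below, are therefore not independent of that step. All 4 genes were lower in WT replicates 3 and 4 than in replicates 1 and 2, and all 4 were called, but so were 61.9% of all genes in either direction and 31.4% as lower. Slc27a6 had the largest difference of the 4. Its mean was 21.4 CPM in replicates 1 and 2 and 2.27 CPM in replicates 3 and 4, a 9.43-fold ratio of means and a log2 difference of −3.24 (SE 0.19, adjusted p = 5.3e-09, edgeR quasi-likelihood test). A difference at least as large in either direction was found for 2.24% of genes tested. Ppargc1a fell from 3.64 to 1.31 CPM, a log2 difference of −1.47 (SE 0.31, adjusted p = 0.00098, edgeR), which 11.2% of genes matched or exceeded. Both were called under each of the alternative settings tried.

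Acadvl fell less between the WT sets, from 20.02 to 15.9 CPM (log2 difference −0.34, SE 0.10, adjusted p = 0.0092, edgeR), a size that 60.8% of genes matched or exceeded. The call was lost without WT replicate 2 (−0.25, adjusted p = 0.10, edgeR) and without WT replicate 3 (−0.26, adjusted p = 0.10, edgeR). For Hadh the sets had 3 and 12 counts against 1 and 1, a fitted log2 difference of −2.75 (SE 0.997, adjusted p = 0.026, edgeR). That call was lost without any of WT replicates 2, 3 and 4 and with the DESeq2 Wald test (adjusted p = 0.055), and without replicate 2 the value was −1.45 (adjusted p = 0.37, edgeR).

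**Figure D2:**
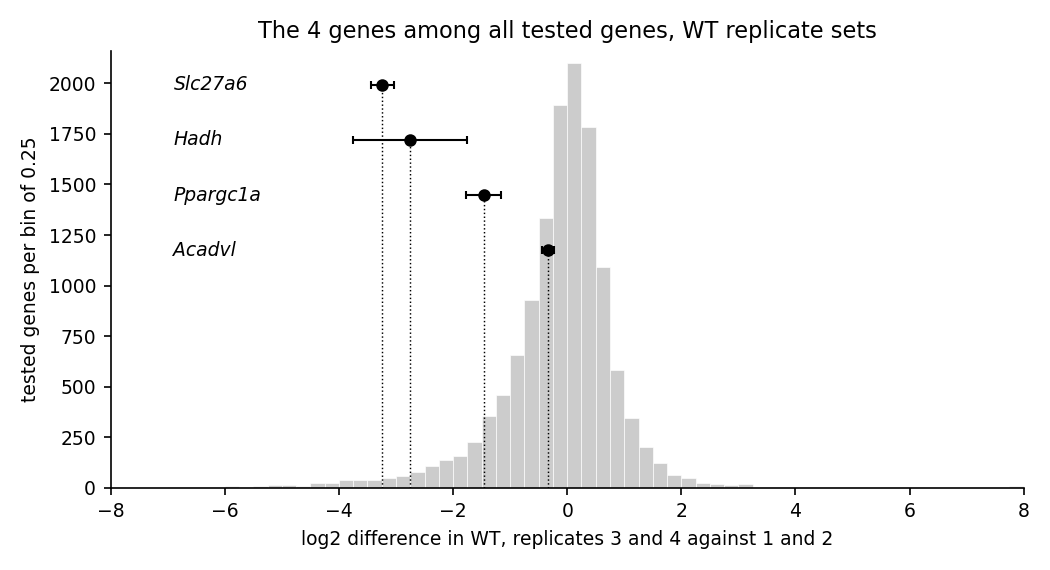
Log2 difference of WT replicates 3 and 4 against 1 and 2 (horizontal axis) for Slc27a6, Hadh, Ppargc1a and Acadvl (points, with bars for the standard error; their height carries no value), over a histogram of the same difference in all 13141 tested genes (grey, vertical axis in genes per bin, with genes beyond the axis counted in the end bins). All 4 points lie to the left of 0, Slc27a6 at −3.24 in the tail of the histogram and Acadvl at −0.34 within its body.

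Within the knockouts, the sets could be compared where the gene was above the floor. In VAMP7KO, Acadvl fell from 12.6 CPM in replicates 1 and 2 to 8.61 CPM in replicates 3 and 4 (log2 difference −0.55, SE 0.12, adjusted p = 0.0006, edgeR), in a comparison that called 56.1% of all genes. In ATG5KO the Acadvl means were 29.3 and 29.8 CPM (log2 difference 0.02, SE 0.10, adjusted p = 0.87, edgeR), where 52.1% of all genes were called. Hadh in ATG5KO had means of 0.626 and 0.564 CPM (log2 difference −0.13, SE 0.52, adjusted p = 0.85, edgeR), and without ATG5KO replicate 1 the sign turned, to 0.038. The 4 ATG5KO libraries spanned 29.2 to 29.8 CPM for Acadvl, while those of WT spanned 14.9 to 21.2 CPM. On 635 to 841 counts a library, the ATG5KO values lay closer together than counting error alone would usually leave them. A steadier level in ATG5KO is therefore not read from them. Whether the spread differed between the genotypes was not tested.

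Whether the knockout effect itself differed between the replicate sets was asked with the interaction term of a fit on genotype and set. For Acadvl, the VAMP7KO effect differed by −0.21 in log2 (SE 0.16, adjusted p = 0.40, edgeR), in a test that called 16.5% of all genes. The ATG5KO effect differed by 0.36 (SE 0.14, adjusted p = 0.071, edgeR), in a test that called 28.9% of all genes. The latter lay close to the threshold and was called in 4 alternatives (without WT replicate 4, without VAMP7KO replicate 1 or 2, and with a filter of 0.5 CPM), with values from 0.40 to 0.49. For Hadh, the ATG5KO effect differed by 2.62 (SE 1.15, adjusted p = 0.10, edgeR), on WT counts of 1 in both libraries of the second set. It was called without WT replicate 1 (3.30, adjusted p = 0.042, edgeR). Slc27a6, Ppargc1a and, in VAMP7KO, Hadh had no level in the knockout from which an interaction could be computed.

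**Figure D3:**
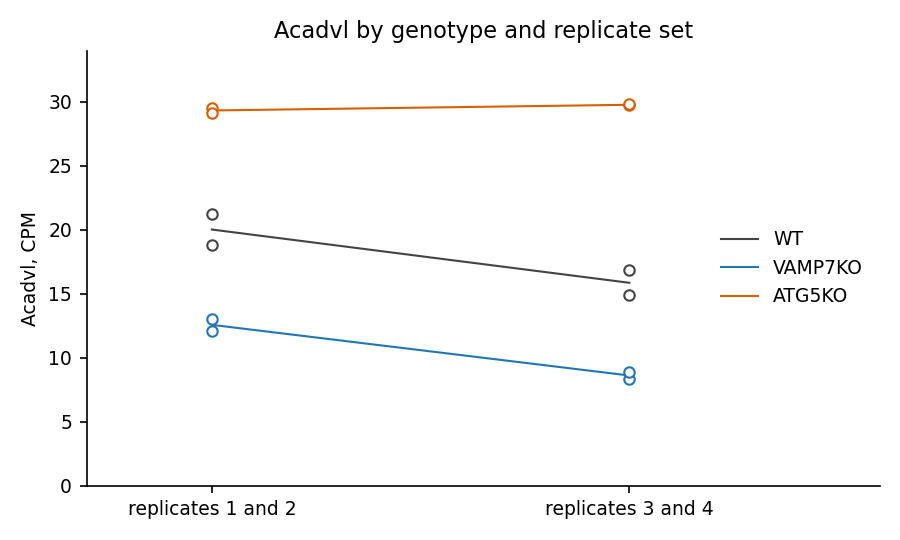
Acadvl level in CPM (vertical axis, linear, from 0) in replicates 1 and 2 and in replicates 3 and 4, with an open circle for each library and lines between the means of 2 libraries in WT, VAMP7KO and ATG5KO. The WT and VAMP7KO lines fall, from 20.02 to 15.9 and from 12.6 to 8.61 CPM, and the ATG5KO line stays at 29.3 to 29.8 CPM.

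The other genes of the pathway were taken from 6 lists on uptake, acyl-CoA metabolism, the carnitine shuttle, mitochondrial and peroxisomal oxidation and their regulators. Of 166 genes, 25 could be identified in the table, the 4 genes included. Every identified gene was one that the study itself had listed as changed in these libraries, so the lists hold no independent evidence of a direction. Of the 21 others, 7 were called higher and 3 lower in VAMP7KO, where 10.5% and 12.3% of all genes were. In ATG5KO, 14 were called higher and 3 lower, where 23.6% and 22.7% of all genes were. Several of them differed between the replicate sets in the size of their change, and only some of these differences are given below. Slc25a29 in VAMP7KO, for example, was at 7.10% of WT in replicates 1 and 2 and 19.7% in replicates 3 and 4. Their median log2 fold change was 0.03 in VAMP7KO and 1.20 in ATG5KO, against 0.004 and 0.008 over all genes tested.

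Among uptake and binding genes, the other 3 had no call in VAMP7KO and were higher in ATG5KO. Fabp4, a cytosolic fatty acid carrier, had a mean of 1.21 CPM in WT and 12.7 CPM in ATG5KO (log2 fold change 3.32, SE 0.75). Its VAMP7KO level was 60.3% of WT in replicates 1 and 2 and 863% in replicates 3 and 4. Lrp2 and Cubn, endocytic receptors of the proximal tubule, changed by 2.18 (SE 0.33) and 1.90 (SE 0.19) in ATG5KO. Of the 4 identified genes of this list of 22, only Slc27a6 had a call in VAMP7KO, and only it was lower in ATG5KO. Because Slc27a6 was chosen as lowered in both knockouts, this restates that choice.

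Of the acyl-CoA genes, Acsm2, a medium-chain acyl-CoA synthetase, was higher in VAMP7KO (18.3 against 2.93 CPM, log2 fold change 2.71, SE 0.63), as was the mitochondrial thioesterase Acot2 (0.92, SE 0.11). The Acsm2 level of VAMP7KO was 1137% of WT in the first set (replicates 1 and 2) and 283% in the other set. In ATG5KO the acyl-CoA-binding Acbd4 (1.10, SE 0.10) and the thioesterase Acot11 (3.79, SE 0.57) were higher. Acot11 was at the floor in VAMP7KO, with 0 to 3 counts a library, and in most WT libraries. On the carnitine shuttle list, Cpt1c, a carnitine palmitoyltransferase of neurons, was higher in both knockouts (1.13 in each, SE 0.24). Slc25a29, a mitochondrial carrier, was lower in both, with log2 fold changes of −2.83 (SE 0.38) in VAMP7KO and −3.13 (SE 0.40) in ATG5KO.

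Slc25a48, another carrier of this family, had opposite calls in the knockouts, in the same directions as Acadvl. A place on the list does not show that these Slc25 carriers move carnitine or acyl groups, and transport was not measured. Its mean was 10.6 CPM in WT, 0.314 CPM in VAMP7KO and 25.3 CPM in ATG5KO, with log2 fold changes of −5.05 (SE 0.30) and 1.25 (SE 0.20). Slc25a45 was higher in ATG5KO (2.69, SE 0.53), at 324% of WT in replicates 1 and 2 and 1439% in replicates 3 and 4, on WT counts of 3 to 11. No change was called in either knockout for Bbox1, which makes carnitine (−0.87, SE 0.61, and 1.20, SE 0.51).

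The acyl-CoA dehydrogenases did not move as one. Acadsb, which acts on short branched chains, was at 39.1 CPM in WT and 63.4 CPM in VAMP7KO (log2 fold change 0.68, SE 0.08), where Acadvl was lower, and had no call in ATG5KO (−0.03, SE 0.08), where Acadvl was higher. Acad11 was higher in both knockouts (0.86, SE 0.10, and 1.17, SE 0.10). Of the peroxisomal genes, the very long chain transporter Abcd2 was higher in both (0.95, SE 0.19, and 1.41, SE 0.19). Phyh, which starts the breakdown of phytanic acid, was at 0.249 CPM in WT, 0.254 in VAMP7KO and 12.5 in ATG5KO (5.62, SE 0.30), and Pex11g was higher in ATG5KO (1.07, SE 0.36).

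The regulators beside Ppargc1a had counts in all 3 genotypes, but Pparg was near the floor in ATG5KO. Its counts there were 3, 6, 3 and 10, with 2 libraries at the floor. Pparg, a nuclear receptor of fat storage, was at 2.41 CPM in WT and 0.229 CPM in ATG5KO (−3.41, SE 0.40), with no call in VAMP7KO (−0.56, SE 0.32). Nrip1, a corepressor of nuclear receptors, was lower in both knockouts (−0.87, SE 0.12, and −1.81, SE 0.13). Klf15, a transcription factor of fasting metabolism, was higher in both (1.50, SE 0.30, and 1.39, SE 0.30), in VAMP7KO at 404% of WT in replicates 1 and 2 and 169% in replicates 3 and 4. Acacb makes the malonyl-CoA that restrains carnitine palmitoyltransferase, and it was higher in ATG5KO (2.06, SE 0.51), at 708% of WT in replicates 1 and 2 and 193% in replicates 3 and 4.

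**Figure D4:**
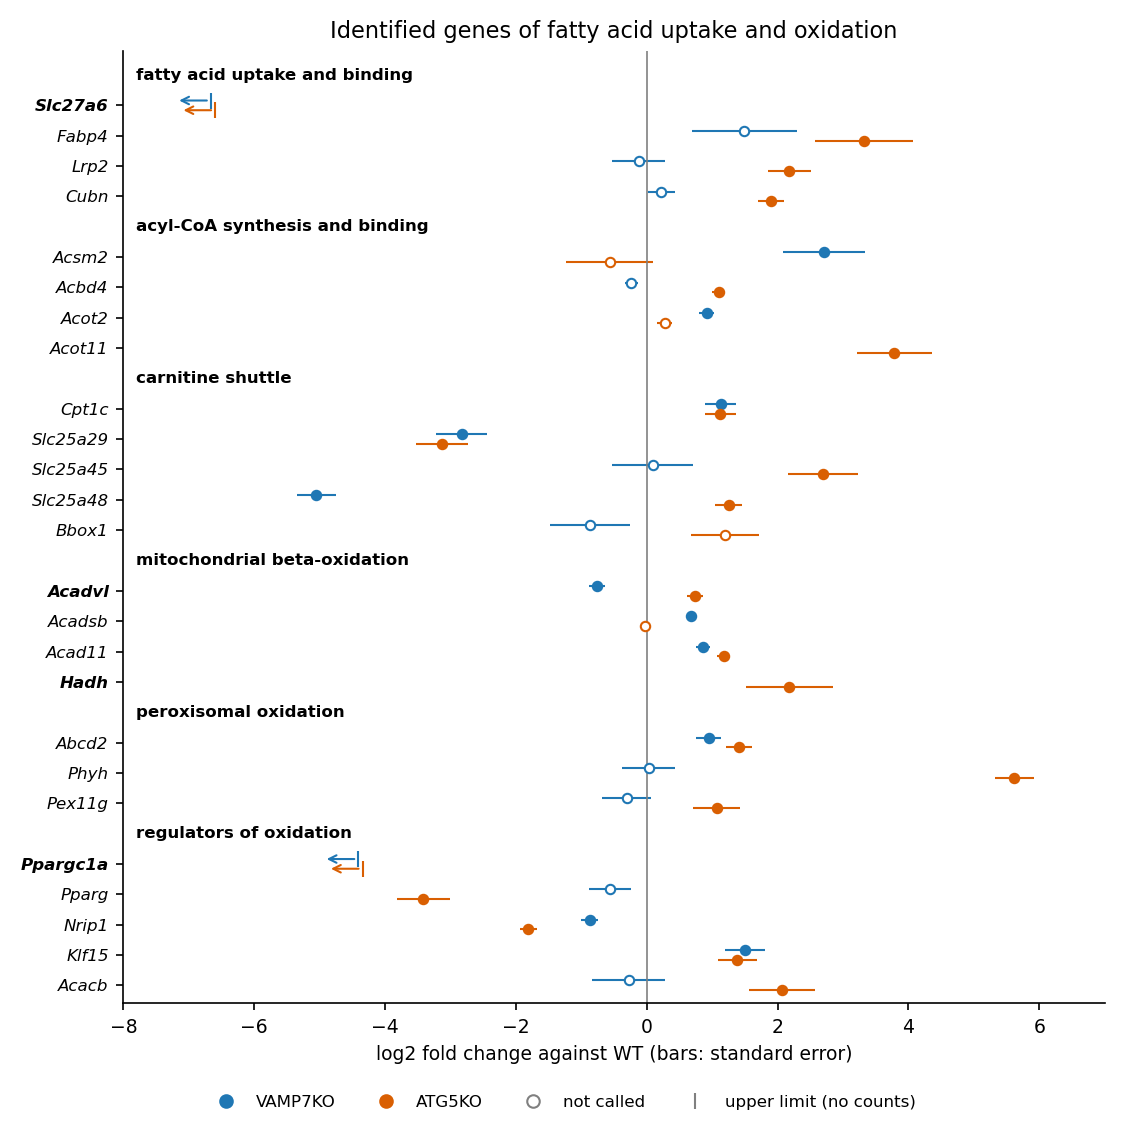
Log2 fold change against WT (horizontal axis) in VAMP7KO (blue) and ATG5KO (orange) of the 25 identified genes of the 6 lists, with bars for the standard error, filled points where the adjusted p was under 0.05, and arrows starting at the limit for Slc27a6 and Ppargc1a, which had no counts in the knockouts. Acot11 and Hadh have no VAMP7KO point because they were at the floor there. Most ATG5KO points lie to the right of 0 (16 called higher), while those of VAMP7KO lie on both sides (7 called higher, 6 lower).

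The list of known targets of PGC-1 and PPAR factors had 8 identified genes of 33, again ones the study had listed as changed. Of these, 7 were called higher and 1 lower in ATG5KO, against 23.6% and 22.7% of all genes. In VAMP7KO, 1 was called higher and 2 lower, against 10.5% and 12.3%. Pdk4, the kinase that turns cells from glucose to fatty acid use, was at 0.774 CPM in WT and 5.12 CPM in ATG5KO (2.59, SE 0.38), and was not called in VAMP7KO (0.94, SE 0.40). Plin2, a coat protein of lipid droplets, was the target lower in ATG5KO (−1.08, SE 0.07), and it was also lower in VAMP7KO (−0.97, SE 0.07). Pdk4 also split by replicate set: its counts in ATG5KO were 213, 255, 28 and 16.

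The genes whose levels were most like those of each gene were sought by Pearson r of log2(CPM + 0.1) over the 12 libraries, among the 1310 genes with a symbol and a mean of at least 1 CPM. These candidates had been listed by the study as changed, and the points share the genotypes and replicate sets, so r is given as a description. For Slc27a6 they were Tfec, Scn1a and Ptprc (r = 0.999, 0.996 and 0.992), for Ppargc1a Rims2, Mctp2 and Cdh8 (0.9998, 0.9985 and 0.9983). Tfec was at 12.4 CPM in WT replicates 1 and 2, 2.12 CPM in replicates 3 and 4 and 0 in both knockouts. For Acadvl they were Adcy9, Selenom and AABR07045485.1 (0.980, 0.973 and 0.972), and for Hadh Aspa, Nkx2-3 and LOC689986 (0.964, 0.960 and 0.959). With Spearman's rho in place of r, 1 of the 3 genes was the same for Slc27a6, Acadvl and Ppargc1a.

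Markers of other cells moved with the genotypes too. The 4 identified proximal tubule markers (of 20) summed to 204 to 360 CPM in WT, 11.1 to 15.4 CPM in VAMP7KO and 41.9 to 63.1 CPM in ATG5KO. Aqp1, the water channel of that segment, was the main part of the sum, with 5.77 CPM in VAMP7KO and 19.7 in ATG5KO against 248 CPM in WT. The fall of the sum in ATG5KO did not hold for the whole list, as only Aqp1 was called lower there. Lrp2 and Cubn were called higher in ATG5KO, at 0.857 and 4.63 CPM against 0.187 and 1.22 CPM in WT. Neither Lrp2 nor Cubn was called in VAMP7KO. Between the WT replicate sets the markers went both ways: Aqp1 had 4916 and 4224 counts in replicates 1 and 2 and 10662 and 9218 in replicates 3 and 4, while Anpep, an aminopeptidase of the brush border, had 1614 and 1624 against 246 and 215. Of the 11 fibroblast and mesenchymal markers tested, 7 were higher and 1 lower in each knockout. Over all genes, 10.5% were called higher and 12.3% lower in VAMP7KO, and 23.6% and 22.7% in ATG5KO. Every identified marker was a gene that the study had listed as changed, so these calls are no independent evidence of a direction. Fap, which was not tested, had 27, 21, 3 and 0 counts in WT and none in the knockouts. The part of these markers in the levels of the 4 genes was not tested.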

How the data were processed

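NRK cells of 3 genotypes were sequenced in 4 replicates each, from 600 ng of total RNA with a stranded mRNA kit, as 50-base reads. The authors trimmed the reads, removed those of rRNA, aligned them to mRatBN7.2 (STAR) and made read counts per Ensembl gene (htseq-count). The deposited table holds these raw counts for 20842 genes. Columns were matched to samples by name, after a missing separator in the header had been restored. The table has no symbols: 1976 genes were named through the identifiers of the study's supplementary lists. The authors' comparison columns in those lists (fold changes, p-values) were not used.

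Genotypes were compared by quasi-likelihood F tests in edgeR 4.0.16 and R 4.3.3 (TMM, filterByExpr by genotype, 13141 genes), fitted to all 12 libraries with a term for replicate number, because the study adjusted for a batch that its methods do not name. Standard errors were the fold change over the square root of F. Replicate sets (1 and 2, 3 and 4) and their interaction with genotype were tested on the 6 cell means, without the block. Libraries of equal number deviated together from their genotype means (r 0.571 to 0.691 in 12 pairs), as did libraries of the same set with other numbers (0.536 to 0.689). Once the means of the sets were removed, r for libraries of equal number was −0.026 to 0.178. The replicate number thus carried little beyond the set. Calls used an adjusted p under 0.05. A fold against a group without counts was the mean of the other group over a floor of 3 counts per library. No 2 libraries agreed within sampling noise. The 4 genes, the 13 gene lists and the sets were chosen with earlier results of these data known. Named are the 4 genes, the identified genes of the lists and, for each of the 4, the 3 genes most like it. The fits were tested on simulated data. Alternatives were DESeq2's size factors, the DESeq2 Wald test (DESeq2 1.42.0), other filters, no replicate block, the set as block, fewer genotypes or sets, and each library left out. Python 3.11.15, pandas 2.3.3, numpy 2.4.6 and matplotlib 3.10.9 were used for the other steps.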

Additional observations from a re-analysis of the deposited data

Results flagged for a closer look

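One library stood apart among the groups of 4 libraries examined for these genes. The Hadh level of ATG5KO replicate 1 was 0.697 CPM against 0.553 to 0.575 CPM in the other 3, a gap to the nearest that was 0.848 of the whole range. These levels are 12 to 16 counts a library, and about 1 in 20 such groups is marked by chance.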

How the results depend on the processing

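Of 308 alternative values, 293 were classed as the same. For the tests between replicate sets this meant the same direction and side of the threshold. Folds and limits between genotypes, given as descriptions, were judged by size against the spread between replicates, so a lost call is not counted. For Slc27a6 that spread includes the split of the WT sets. Its limit over VAMP7KO, 101-fold in all replicates and 19.6-fold in replicates 3 and 4, thus counted as the same. Without the replicate block the log2 fold change of Acadvl was −0.76 in VAMP7KO and 0.72 in ATG5KO, with both calls kept, and that of Hadh in ATG5KO was 1.99, with its call lost. The block changed no other call of the 4 genes. It did change the calls over all genes: without it 1024 genes in place of 3004 were called in VAMP7KO against WT, 3102 in place of 6081 in ATG5KO against WT and 2997 in place of 5903 between the knockouts. VAMP7KO against WT gave 5249 calls in replicates 1 and 2 alone, 5173 in replicates 3 and 4 alone, 1923 without VAMP7KO replicate 1 and 1954 without WT replicate 1. The test of the VAMP7KO effect between sets gave 2165 calls, and 1312, 1335 and 1419 without VAMP7KO replicate 3, WT replicate 3 and WT replicate 4.

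Leaving out 1 library at a time moved the Hadh log2 fold change in ATG5KO between 1.81 and 3.35, and it was 1.26 in replicates 1 and 2 only and 3.87 in replicates 3 and 4 only. The set difference in WT then ranged from −0.44 to −0.25 for Acadvl and from −3.42 to −1.45 for Hadh, for which the DESeq2 Wald test gave −2.93. The set difference of Hadh in ATG5KO ranged from −0.29 to 0.038. The difference of the ATG5KO effect between sets ranged from 0.28 to 0.49 for Acadvl, which was 0.40 with the filter of 0.5 CPM, and from 1.33 to 3.30 for Hadh. The cause of these changes was not tested. The counts behind Hadh, 0 to 16 a library, limit every comparison of it. Where 1 library of a set remained, it was assumed to vary like the others. Of the 3 genes most like each gene, 1 or more stayed under each alternative measure.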

Other observations

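The lists on lipid synthesis, storage and ketone bodies had few identified genes, all of them from the study's own lists of changed genes. Over all genes tested, 12.3% were called lower and 10.5% higher in VAMP7KO, and 22.7% and 23.6% in ATG5KO. Both synthesis genes were lower in VAMP7KO. Fads3, a member of the fatty acid desaturase family, fell from 28.0 CPM in WT to 1.10 CPM (log2 fold change −4.70, SE 0.24) and had no call in ATG5KO (0.08, SE 0.18). Hacd4, an elongation enzyme, was at 5.57 CPM in WT, 3.39 in VAMP7KO and 13.5 in ATG5KO. Of the 5 storage genes tested, 3 were lower and 1 higher in VAMP7KO, and 3 were higher and 2 lower in ATG5KO. Gpat2, a glycerol phosphate acyltransferase, was at 1.47 CPM in WT, 0.367 in VAMP7KO and 93.8 in ATG5KO (6.01, SE 0.26). Abhd5, the coactivator of triglyceride lipolysis, was higher in VAMP7KO (0.68, SE 0.11) and lower in ATG5KO (−0.34, SE 0.11). Of the ketone body genes, Bdh1 was higher in both knockouts (0.60, SE 0.09, and 1.62, SE 0.09), while Bdh2 was higher in VAMP7KO (0.60, SE 0.10) and lower in ATG5KO (−0.50, SE 0.11).

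Both identified epithelial markers, Krt8 and Cdh16, were lower in VAMP7KO and not called in ATG5KO. Of the 4 proximal tubule markers, 2 were lower in VAMP7KO, and 2 were higher and 1 lower in ATG5KO. Over all genes, 12.3% were called lower in VAMP7KO, and 23.6% higher and 22.7% lower in ATG5KO. These markers too could be identified only through the study's lists of changed genes.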
